A study of Mus musculus with 2 samples.

Results

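Small leucine-rich proteoglycans are secreted matrix proteins with a core of leucine-rich repeats, and versican is a large proteoglycan that binds hyaluronan. The 10 genes described here, Dcn, Bgn, Aspn, Lum, Fmod, Prelp, Omd, Ogn, Podn and Vcan, were chosen by symbol from 53698 gene entries, and each symbol matched 1 entry. They were followed across cell classes, and within fibroblast-like cells, in single-cell RNA profiles of FVBN mouse kidney cells labelled as positive for the PDGF receptors alpha and beta. The series had 1 library labelled UUO, from kidney taken 10 days after unilateral ureteral obstruction, and 1 library labelled sham. Obstruction of the ureter is a surgical model of kidney fibrosis, and both libraries carry the same labels for strain, digestion and receptors. How many animals each library pooled is not given in its labels. Each captured transcript was tagged near its 3′ end with a unique molecular identifier (UMI), and levels are given as counts per 1000000 summed UMIs (CPM), which compare like with like because each transcript is counted at 1 end. With 1 library per group there was no replicate and no test between groups was made. All intervals are 95% intervals that cover counting error only.

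Proteins of the leucine-rich family bind collagen fibrils as they assemble, and many carry chondroitin, dermatan or keratan sulfate chains that hold water between fibrils. Decorin and biglycan, close relatives, also bind growth factors of the TGF-beta family. In the kidney, decorin and lumican are known from interstitial fibroblasts and scars, and versican from loose, hyaluronan-rich matrix.

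The library labelled UUO held 1291 barcodes and 6023072 UMIs, and the sham-labelled library held 10812 barcodes and 85359332 UMIs. After filtering, 1052 cells labelled UUO and 10656 cells labelled sham were retained, with medians of 4154 and 7824 UMIs, and the libraries shared 16 cell barcodes. Cells were placed in classes by counting detected markers, none of which belonged to the family. Fibroblast-like cells numbered 562 in the UUO-labelled library, 53.4% (50.4 to 56.5) of its retained cells, and 9149 in the sham-labelled library, 85.9% (85.2 to 86.5). Cells without a clear class were 28.6% of the UUO-labelled library and 6.28% of the sham-labelled library. Pdgfra stood at 273 CPM in fibroblast-like cells labelled UUO and 245 CPM in those labelled sham, and Pdgfrb at 181 and 304 CPM. Some transcripts known from injured kidney went against the labels. In fibroblast-like cells Spp1 was at 193 CPM in the UUO-labelled library and 12925 CPM in the sham-labelled library, Timp1 at 70.9 and 708 CPM, and Acta2 at 300 and 1494 CPM. The collagen transcripts Col1a1 (1664 and 2410 CPM) and Col3a1 (2045 and 3653 CPM) were also lower with the label UUO, by less than 2-fold. Others went with the labels: Ctgf was at 705 CPM labelled UUO and 180 CPM labelled sham, C3 at 633 and 37.0 CPM, and Postn at 162 and 78.7 CPM. Whether the labels of the libraries were exchanged was not tested, and an exchange would turn every ratio between them. Groups are therefore called by their labels, and none of the directions below is read as a response to obstruction.

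Most members lie beside a relative in the genome (GENCODE M21, GRCm38). Dcn (ENSMUSG00000019929.16) spans chromosome 10 from 97479609 to 97518143, and Lum (ENSMUSG00000036446.5) follows it on the same strand from 97565128 to 97572703, after a gap of 46984 bases with 0 coding genes. On chromosome 13, Aspn (ENSMUSG00000021388.14, 49544443 to 49567565), Omd (ENSMUSG00000048368.9, 49582462 to 49592822) and Ogn (ENSMUSG00000021390.6, 49608046 to 49624501) follow each other on the plus strand, and Cenpp overlaps all of them on the opposite strand. Prelp (ENSMUSG00000041577.5), on the minus strand of chromosome 1 from 133910304 to 133921414, and Fmod (ENSMUSG00000041559.7), on the plus strand from 134037254 to 134048277, are neighbours 115839 bases apart. Bgn (ENSMUSG00000031375.17) lies on chromosome X from 73483602 to 73495933, Podn (ENSMUSG00000028600.15) on the minus strand of chromosome 4 from 108014791 to 108096445, and Vcan (ENSMUSG00000021614.16) on the minus strand of chromosome 13 from 89655312 to 89742509. Cenpp held 2 counts labelled UUO and 140 labelled sham. The annotated span of Podn overlaps Scp2 on its own strand, so reads in that stretch could be counted for either gene. Nonzero Podn values were 100% whole in both libraries, so none showed a division between genes. Prelp and Vcan overlap the antisense entries Gm15851 and Gm4117, which lie on the opposite strand. Deposited values were whole numbers for every member except Omd, for which 89.7% were whole in the UUO-labelled library and 76.3% in the sham-labelled library. Part of the Omd counts was therefore shared with another gene model, and its levels are uncertain.

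Promoters of 8 of the 10 members, all but Dcn and Lum, were found in the RefSeq table (GRCm38.p6), each with 250 bases before the start site and 50 after it. The sequences of 5 members follow because they span the range of base composition of these 8, from Aspn to Podn. In the UUO-labelled library Aspn, Ogn and Podn were 2-fold or more higher and Vcan 2-fold or more lower, while Bgn was lower but within 2-fold. They were picked with these values known, so they show letters and no relation between composition and direction. Capitals mark matches on either strand to a TATA box (TATAAA), a GC box (GGGCGG) or a CCAAT box (CCAAT). Aspn is at chr13:49544193-49544492 (plus), Ogn at chr13:49607765-49608064 (plus), Podn (the first of 2 start sites) at chr4:108031905-108032204 (minus), Bgn at chrX:73483351-73483650 (plus) and Vcan at chr13:89742463-89742762 (minus).
Aspn: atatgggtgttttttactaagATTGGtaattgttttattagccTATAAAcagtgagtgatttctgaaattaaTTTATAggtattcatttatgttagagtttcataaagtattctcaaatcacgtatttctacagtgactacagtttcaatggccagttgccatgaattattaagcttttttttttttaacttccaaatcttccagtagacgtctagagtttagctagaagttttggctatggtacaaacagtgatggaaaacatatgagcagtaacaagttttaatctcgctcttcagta
Ogn: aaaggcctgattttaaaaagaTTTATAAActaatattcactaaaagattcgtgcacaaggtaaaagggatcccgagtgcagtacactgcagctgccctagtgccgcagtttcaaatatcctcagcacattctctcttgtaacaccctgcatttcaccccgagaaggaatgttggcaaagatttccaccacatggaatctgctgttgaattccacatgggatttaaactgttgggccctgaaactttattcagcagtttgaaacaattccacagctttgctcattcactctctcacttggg
Podn: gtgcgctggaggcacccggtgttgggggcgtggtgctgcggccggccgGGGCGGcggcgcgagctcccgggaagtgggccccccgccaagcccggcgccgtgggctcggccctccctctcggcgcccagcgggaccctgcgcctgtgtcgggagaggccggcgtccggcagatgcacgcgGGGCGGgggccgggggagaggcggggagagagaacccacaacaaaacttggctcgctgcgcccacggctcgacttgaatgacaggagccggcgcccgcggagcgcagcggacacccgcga
Bgn: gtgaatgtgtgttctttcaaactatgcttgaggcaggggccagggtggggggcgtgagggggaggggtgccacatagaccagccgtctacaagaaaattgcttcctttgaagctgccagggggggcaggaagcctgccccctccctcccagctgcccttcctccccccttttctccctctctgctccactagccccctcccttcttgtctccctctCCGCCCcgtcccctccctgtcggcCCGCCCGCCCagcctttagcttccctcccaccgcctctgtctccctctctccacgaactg
Vcan: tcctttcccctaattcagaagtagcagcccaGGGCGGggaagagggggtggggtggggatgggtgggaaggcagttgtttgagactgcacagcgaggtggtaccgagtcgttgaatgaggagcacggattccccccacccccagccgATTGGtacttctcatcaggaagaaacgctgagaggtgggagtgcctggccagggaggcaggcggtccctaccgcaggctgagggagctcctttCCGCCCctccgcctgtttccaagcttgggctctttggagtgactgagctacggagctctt
Among members higher in the UUO-labelled library, the share of G and C bases was 31.0% in Aspn, 37.7% in Omd, 42.3% in Ogn, 51.0% in Fmod and, at its start sites, 77.0% and 63.0% in Podn. It was 55.3% in Prelp, 61.0% in Vcan and 63.7% in Bgn. TATA box matches were found in Aspn and Ogn alone, 2 in each. Counted from the start site, they began at -207 and -178 in Aspn and at -229 and -227 in Ogn. GC box matches were found in Bgn (3), Vcan (2) and the first Podn window (2). The windows of higher members thus ran from the lowest to the highest share among the 8 members with a promoter. Over all 32851 promoters in the table the median was 52.7%, 13.6% held the TATA box letters, 35.7% the GC box letters and 37.4% the CCAAT box letters. The 2 Ogn matches overlapped one another, as did 2 of the 3 in Bgn. None of the members' promoters in the table held the AP-1 letters TGANTCA, which 7.81% of all promoters held. These matches describe letters only.

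In fibroblast-like cells the family as a whole made up 1.96% of all UMIs in the UUO-labelled library and 0.769% in the sham-labelled library, and its leading member differed. Dcn gave 73.7% of the family's UMIs in the UUO-labelled library and 34.7% in the sham-labelled library. Bgn gave 11.9% in the UUO-labelled library and 56.6% in the sham-labelled library. Between the libraries, 7 of 10 members were 2-fold or more higher with the label UUO (Dcn, Aspn, Lum, Fmod, Omd, Ogn and Podn), 1 was 2-fold or more lower (Vcan) and 2 lay within 2-fold (Bgn and Prelp). Of all 9624 genes that reached 10 CPM in one library or both, 12.2% passed 2-fold upward and 4.91% downward. The members' median log2 ratio was 2.32, and that of all genes tested was -0.02. Calls of 2-fold were made after adding 5 CPM, and all 10 members passed the filter, Fmod and Omd through the UUO-labelled library alone. Ratios in the text are of CPM without the added 5.

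**Figure D1:**
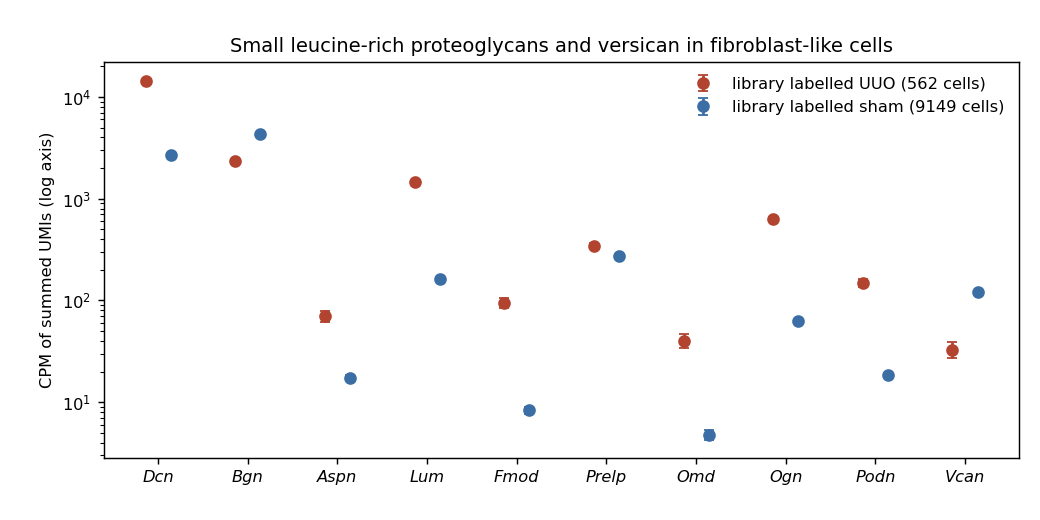
CPM of summed UMIs (log axis) for the 10 members in fibroblast-like cells, with the UUO-labelled library (562 cells) left of the sham-labelled library (9149 cells). Bars are 95% Poisson intervals; Dcn is the highest point labelled UUO at 14417 CPM and Bgn the highest labelled sham at 4352 CPM.

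Decorin (Dcn), which binds collagen fibrils through its protein core, was at 14417 CPM (14295 to 14539) in the UUO-labelled library and 2670 CPM (2658 to 2681) in the sham-labelled library. The ratio was 5.40 (5.35 to 5.45). Its level varied widely from cell to cell. The median fibroblast-like cell was at 9481 CPM in the UUO-labelled library, with the middle 80% of cells between 1687 and 29517 CPM. In the sham-labelled library the median was 1497 CPM and that range ran from 315 to 6177 CPM. The ranges overlapped, although the median cell labelled UUO lay above the upper end of the range labelled sham.

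Biglycan (Bgn), the nearest relative of decorin, ran the other way. It was at 2325 CPM (2276 to 2374) in the UUO-labelled library and 4352 CPM (4338 to 4367) in the sham-labelled library, where it was higher by 1.87-fold (1.83 to 1.91). The median cell held 2096 CPM in the UUO-labelled library and 3737 CPM in the sham-labelled library. Compared within each cell, Dcn had more UMIs than Bgn in 454 of 562 fibroblast-like cells labelled UUO, 80.8% (77.3 to 84.0), and in 1924 of 9149 labelled sham, 21.03% (20.2 to 21.9). At an equal depth of 1000 UMIs per cell it led in 77.5% (73.7 to 81.0) of cells labelled UUO and 23.3% (22.4 to 24.2) of those labelled sham. This comparison within a cell does not depend on how the libraries were scaled. Aspn, asporin, the other close relative of decorin, was low in both libraries, at 70.1 CPM (61.9 to 79.1) labelled UUO and 17.4 CPM (16.4 to 18.3) labelled sham, a ratio of 4.04 (3.52 to 4.61).

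The second group binds collagen at other sites and, in several members, carries keratan sulfate. Lumican (Lum), which limits fibril thickness, was at 1456 CPM (1418 to 1495) in the UUO-labelled library and 161 CPM (158 to 164) in the sham-labelled library, a ratio of 9.04 (8.75 to 9.33). Fibromodulin (Fmod), which shares its collagen site with lumican, was at 94.7 CPM labelled UUO and 8.37 CPM labelled sham, a ratio of 11.3 (9.90 to 12.9). Fmod had the widest ratio of the members, with an interval that overlapped that of Ogn. Prelp, which ties basement membranes to the matrix beside them, differed least, at 346 CPM labelled UUO and 275 CPM labelled sham, a ratio of 1.26 (1.19 to 1.33). Osteomodulin (Omd), known from mineralised tissue, was at 40.1 CPM labelled UUO and 4.76 CPM labelled sham, with the uncertainty given above.

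Osteoglycin (Ogn), also called mimecan, a small member that shapes fibrils in mouse connective tissue, was at 634 CPM (609 to 661) in the UUO-labelled library and 63.0 CPM (61.2 to 64.8) in the sham-labelled library, a ratio of 10.1 (9.59 to 10.6). Podocan (Podn), a collagen-binding member first known from kidney podocytes, was at 148 CPM labelled UUO and 18.4 CPM labelled sham, a ratio of 8.06 (7.30 to 8.90). Versican (Vcan), the hyaluronan-binding member, was at 32.4 CPM (26.9 to 38.7) labelled UUO and 121 CPM (118 to 123) labelled sham, so that sham exceeded UUO by 3.73-fold (3.12 to 4.50). Both genes of the chromosome 10 pair and the whole Aspn, Omd and Ogn row passed 2-fold upward, whereas of the chromosome 1 pair Fmod did and Prelp did not.

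**Figure D2:**
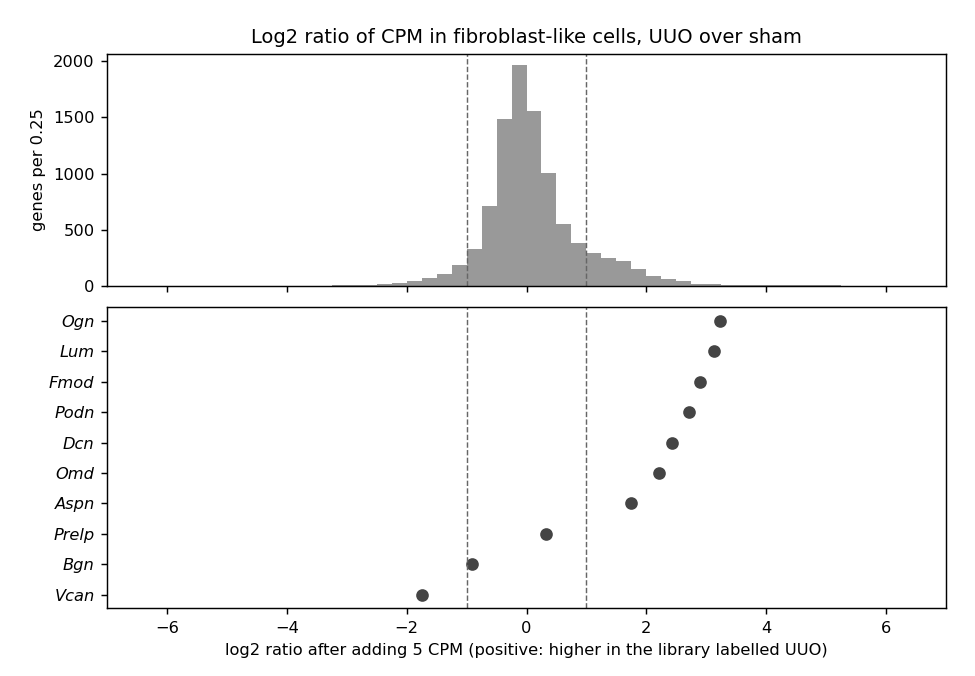
Log2 ratios of CPM in fibroblast-like cells after adding 5 CPM, positive where the UUO-labelled library was higher. The upper panel counts all 9624 genes tested in steps of 0.25, the lower shows the 10 members, and dashed lines mark 2-fold; Ogn lies highest at 3.23 and Vcan lowest at -1.75.

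Depth differed between the libraries, with medians of 5935 UMIs per fibroblast-like cell labelled UUO and 8279 labelled sham. The share of cells with a UMI was therefore taken after thinning every cell to 1000 UMIs, which left 538 cells labelled UUO and 8989 labelled sham. Lum was then found in 47.2% of cells labelled UUO and 9.76% of those labelled sham, and unthinned in 79.5% and 30.8%. Ogn was found in 43.3% of thinned cells labelled UUO and 5.95% of those labelled sham, and unthinned in 78.6% and 28.9%. Vcan was found in 2.60% of thinned cells labelled UUO and 10.2% of those labelled sham, and unthinned in 11.03% and 40.1%. Free RNA gives UMIs in cells that do not express a gene, so the shares in endothelial, immune and tubule classes were set beside these. Among thinned cells of those classes, 127 labelled UUO and 730 labelled sham with median depths of 2815 and 4751 UMIs before thinning, Lum was found in 19.7% and 3.01%. Ogn was found there in 10.2% and 1.37%, and Vcan in 0% and 1.64%. The shares in fibroblast-like cells lay above these in each library. For Vcan labelled UUO the intervals overlapped, at 2.60% (1.43 to 4.33) in fibroblast-like cells and 0% (0 to 2.86) in the other classes.

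Across cell classes, members were highest in mesenchymal cells. Named classes with at least 20 cells numbered 3 in the UUO-labelled library (fibroblast-like, endothelial-like and proximal tubule-like) and 5 in the sham-labelled library. Among these, fibroblast-like cells had the highest level of all 10 members in the UUO-labelled library, and of 9 of 10 in the sham-labelled library. The exception was Aspn in the sham-labelled library, at 18.4 CPM (12.4 to 26.3) in endothelial-like and 17.4 CPM in fibroblast-like cells. That count leaves out pericyte-like cells, which were too few, and cells that held both fibroblast and pericyte markers. The share of all genes that were highest in fibroblast-like cells was not taken, so the count is not read as particular to these members. Pooled, the left-out mesenchymal cells numbered 28 labelled UUO and 66 labelled sham and held Aspn at 156 CPM (96.8 to 239) labelled UUO and 170 CPM (131 to 217) labelled sham. These levels were 223% (136 to 348) of the fibroblast-like level in the UUO-labelled library and 978% (749 to 1257) in the sham-labelled library. They rest on 21 and 64 counts. The intervals of the 2 libraries overlapped for Aspn in these cells. Aspn was thus the member whose level was higher there than in fibroblast-like cells in both libraries. Dcn was at 31.5% (29.0 to 34.1) of its fibroblast-like level in the same cells labelled UUO and 57.5% (52.9 to 62.3) in those labelled sham. Bgn was at 85.5% (75.4 to 96.6) labelled UUO and 69.8% (65.8 to 73.9) labelled sham.

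Outside the mesenchyme, Dcn and Bgn UMIs were found in every class of at least 15 cells, below the fibroblast-like level. Taking endothelial, immune and tubule classes together (161 cells labelled UUO, 772 labelled sham), Dcn was at 1602 CPM in the UUO-labelled library and 357 CPM in the sham-labelled library. That was 11.1% (10.5 to 11.8) of the fibroblast-like level in the UUO-labelled library and 13.4% (12.7 to 14.03) in the sham-labelled library. Lum was at 14.6% (12.4 to 16.99) and 14.4% (11.8 to 17.5) of its fibroblast-like level, and Ogn at 15.9% (12.6 to 19.9) and 21.1% (16.1 to 27.2). Bgn was at 26.0% (23.7 to 28.5) of its fibroblast-like level labelled UUO and 17.1% (16.5 to 17.7) labelled sham. Bgn was also counted per 100 Dcn UMIs, and over all retained cells that figure was 18.2 (17.8 to 18.5) labelled UUO and 164 (163 to 165) labelled sham. In the UUO-labelled library it was 16.1 (15.8 to 16.5) in fibroblast-like cells, 28.2 (24.0 to 32.9) in proximal tubule-like cells and 51.5 (44.2 to 59.8) in endothelial-like cells. In the sham-labelled library it was 163 (162 to 164) in fibroblast-like, 195 (174 to 217) in macrophage-like, 208 (180 to 239) in loop or distal tubule-like and 222 (204 to 243) in endothelial-like cells. These classes lay above both the fibroblast-like and the whole-library figure, while in the 23 T or NK-like cells labelled sham the figure was 110 (70.3 to 172). The part of free RNA in these levels was not tested. Vcan had 0 counts among 791894 UMIs of the non-mesenchymal cells labelled UUO, with an interval of 0 to 4.66 CPM (3 counts would be 3.79 CPM). It was at 15.7 CPM (12.3 to 19.8) in those labelled sham. As a share of the fibroblast-like level that was 0% (0 to 14.6) labelled UUO and 13.0% (10.2 to 16.5) labelled sham, so these intervals overlapped. Macrophage-like cells labelled sham, a cell type known for versican in other settings, held it at 16.9 CPM (10.4 to 26.2), against 21.5 CPM (15.0 to 29.9) in endothelial-like cells.

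Within fibroblast-like cells the members were compared between cells that did and did not hold transcripts named by earlier work on these data. Cells with at least 2 of Clec3b, Sfrp4 and Inmt numbered 416 of 562 in the UUO-labelled library and 133 of 9149 in the sham-labelled library. Among cells labelled sham, 7 of 10 members were 2-fold or more higher in these few cells and 0 were lower, where 3.83% of all 8893 genes tested were higher and 2.43% lower. Fmod and Omd passed the 10 CPM filter through these cells alone. Lum was at 1220 CPM in them and 143 CPM in the other fibroblast-like cells, a ratio of 8.54 (8.09 to 9.004). Fmod was at 95.5 and 6.87 CPM, a ratio of 13.9 (11.3 to 16.97), and Ogn at 393 and 57.3 CPM, a ratio of 6.86 (6.24 to 7.53). Dcn was at 8435 and 2570 CPM, a ratio of 3.28 (3.22 to 3.35). Aspn, Omd and Podn were higher in these cells too, by 3.79-fold, 4.49-fold and 3.33-fold. Prelp had a ratio of 0.976 (0.875 to 1.09), Bgn of 0.872 (0.847 to 0.897) and Vcan of 0.705 (0.578 to 0.850). The 7 (Dcn, Aspn, Lum, Fmod, Omd, Ogn and Podn) are those that passed 2-fold upward between the libraries, and the transcripts that pick the cells were themselves named from these data, so the match is a description. In the same split of the cells labelled UUO, 5 members (Dcn, Lum, Fmod, Ogn and Podn) were higher and 0 lower, where 3.43% of all 9939 genes tested were higher and 5.52% lower. The split gave ratios of 3.20 (3.08 to 3.33) for Dcn, 2.97 (2.63 to 3.35) for Lum, 2.10 (1.80 to 2.47) for Ogn and 0.882 (0.833 to 0.936) for Bgn. Vcan had a ratio of 2.31 (1.13 to 5.47), from 35.2 CPM in these cells and 15.2 CPM in the 146 others. Vcan thus went opposite ways in the 2 libraries, but it passed 2-fold in neither after the added 5 CPM.

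When cells with these transcripts were compared between the libraries, the ratios of Dcn, Aspn, Lum, Fmod, Omd, Ogn and Podn were smaller than over all fibroblast-like cells. Lum was at 1606 CPM in the 416 cells labelled UUO and 1220 CPM in the 133 cells labelled sham, a ratio of 1.32 (1.24 to 1.39). Fmod was at 104 and 95.5 CPM, a ratio of 1.08 (0.879 to 1.35), and Aspn had a ratio of 1.19 (0.923 to 1.55). Ogn was at 685 and 393 CPM, a ratio of 1.74 (1.58 to 1.92), and Dcn at 15956 and 8435 CPM, a ratio of 1.89 (1.85 to 1.93). Podn had a ratio of 2.73 (2.14 to 3.52) and Omd of 2.06 (1.34 to 3.27). Vcan was at 35.2 CPM labelled UUO and 85.4 CPM labelled sham, and Bgn at 2282 and 3802 CPM. Groupings by other transcripts gave both wide and narrow ratios. Lum was higher by 12.3-fold (10.9 to 13.8) in cells with Clca3a1 and Agtr1a, 8.22-fold (7.32 to 9.20) in cells with at least 2 of Npr3, Serpine2 and Nkd2, and 9.49-fold (9.14 to 9.85) in those with at least 2 of Igfbp3, Adamts5 and Fbln5. In that order, the groups numbered 81, 30 and 517 cells labelled UUO and 1213, 5084 and 3981 labelled sham. Cells shared with the Clec3b, Sfrp4 and Inmt group were 56, 25 and 397 labelled UUO, and 6, 40 and 74 labelled sham. The groups therefore differed in make-up between the libraries. In cells with at least 2 of Ptx3, C3 and Sfrp4 (275 and 209), a list that shares Sfrp4, the ratio of Lum was 1.55 (1.48 to 1.63) and that of Fmod 1.13 (0.933 to 1.37). Of these cells, 261 labelled UUO and 94 labelled sham also belonged to the Clec3b, Sfrp4 and Inmt group. Depth differed across the Clec3b, Sfrp4 and Inmt split, and whether free RNA did was not tested. At least 2 of the 3 transcripts were also detected in 52.2% of endothelial-like and 25.6% of proximal tubule-like cells labelled UUO, and in 0 of 353 endothelial-like cells labelled sham. Cells with the transcripts had a median of 7473 UMIs in the UUO-labelled library, where the other fibroblast-like cells had 3258, and 9162 in the sham-labelled library, where the others had 8266. The part of depth and free RNA in the values was not tested.

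**Figure D3:**
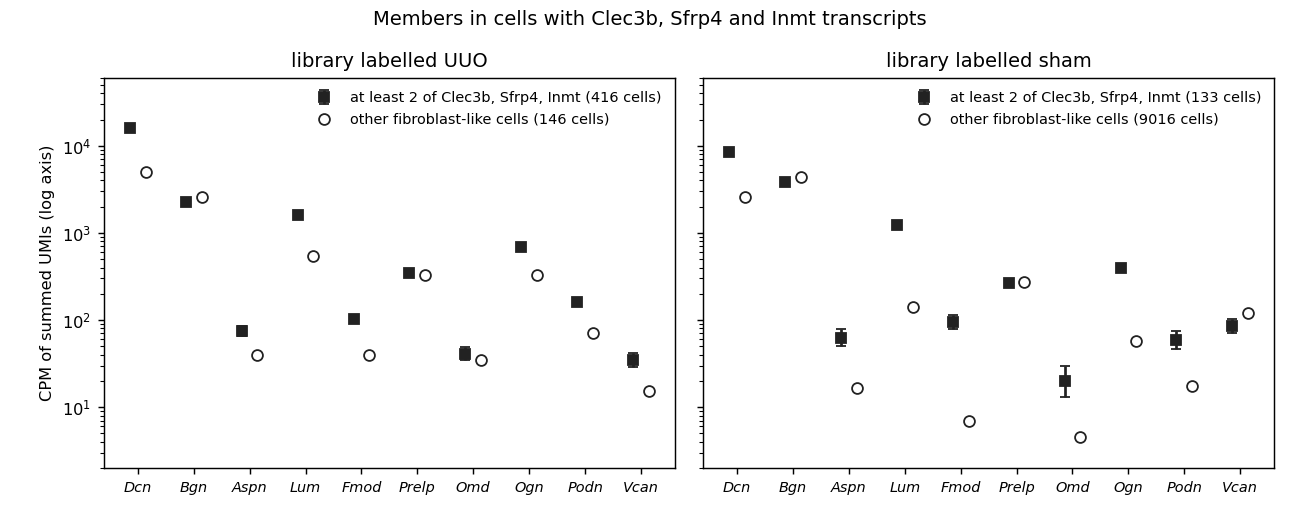
CPM of summed UMIs (log axis) in fibroblast-like cells with at least 2 of the transcripts Clec3b, Sfrp4 and Inmt (squares, with 95% Poisson intervals) and in the other fibroblast-like cells (open circles), the UUO-labelled library left and the sham-labelled library right. Among cells labelled sham, Lum stands at 1220 CPM in squares and 143 CPM in circles, while Bgn and Prelp nearly coincide.

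Other groupings of fibroblast-like cells set members apart from each other. Cells with both Clca3a1 and Agtr1a numbered 81 labelled UUO and 1213 labelled sham. In the UUO-labelled library, Dcn was at 6181 CPM in them and 16129 CPM in the other cells, a ratio of 0.383 (0.371 to 0.396), Fmod had a ratio of 0.213 (0.118 to 0.356), and Vcan was counted once. In the sham-labelled library, Lum had a ratio of 0.335 (0.309 to 0.363) in such cells and Vcan one of 0.383 (0.351 to 0.417). Ogn went opposite ways, at a ratio of 0.546 (0.476 to 0.624) labelled UUO and 1.72 (1.61 to 1.84) labelled sham. Vcan was higher beside Car3 and Rbp4 in both libraries. In cells with both of these it was at 59.8 CPM in 149 cells labelled UUO and 404 CPM in 34 cells labelled sham, 3.44-fold (2.34 to 5.13) and 3.39-fold (2.89 to 3.96) above the other fibroblast-like cells of each library. These cells were deep, with a median of 8884 UMIs labelled UUO, where the others had 4942, and 10088 labelled sham, where the others had 8269. Both transcripts were also detected in 9.30% of proximal tubule-like and 5.97% of endothelial-like cells labelled UUO, and in 0 of 353 endothelial-like cells labelled sham, and the part of depth and free RNA was not tested.

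Cells were also ranked by the share of their UMIs from Col1a1, Col1a2 and Col3a1, the main fibrillar collagen genes. In the highest 10%, 56 cells labelled UUO and 914 labelled sham, Aspn was 4.24-fold (3.23 to 5.54) above the other cells in the UUO-labelled library and 2.32-fold (2.00 to 2.69) in the sham-labelled library. Vcan was 3.35-fold (2.16 to 5.07) and 2.78-fold (2.64 to 2.93) above them, and Lum 1.94-fold (1.81 to 2.09) and 4.40-fold (4.22 to 4.58). Bgn had ratios of 1.07 (0.999 to 1.15) labelled UUO and 0.878 (0.866 to 0.889) labelled sham, and Prelp of 0.962 (0.791 to 1.16) and 0.950 (0.902 to 1.00). Bgn and Prelp therefore differed little between these collagen-rich cells and the others in either library. In the 10% of cells with the lowest collagen share, Bgn had ratios of 0.950 (0.874 to 1.03) labelled UUO and 0.816 (0.804 to 0.827) labelled sham. Prelp had ratios there of 0.739 (0.575 to 0.936) labelled UUO and 0.802 (0.758 to 0.848) labelled sham. The collagen-rich cells labelled sham were shallow, with a median of 4311 UMIs where the others had 8527, and those labelled UUO had 5428 where the others had 5984. In the 10% of cells with the highest share of the contractile transcripts Acta2, Tagln and Myl9, Dcn had ratios of 0.427 (0.410 to 0.445) labelled UUO and 0.609 (0.599 to 0.619) labelled sham. Lum was at 0.473 (0.418 to 0.534) and 0.475 (0.441 to 0.511). Fmod differed in direction, at 1.91 (1.43 to 2.52) labelled UUO and 0.512 (0.367 to 0.699) labelled sham.

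Across single fibroblast-like cells, values of 1 library share their depth and free RNA, so correlations are given as descriptions. Dcn and Lum had the highest correlation of any pair of members, with a Pearson r of 0.62 over 562 cells labelled UUO and 0.29 over 9149 cells labelled sham. After thinning to 3000 UMIs it was 0.61 over 429 cells and 0.26 over 7547 cells. Dcn and Ogn had an r of 0.38 labelled UUO and 0.17 labelled sham. Dcn and Bgn had an r of -0.10 labelled UUO and 0.20 labelled sham, too weak to be read as a relation. Among 3005 genes with at least 50 CPM in the UUO-labelled library, those most like Dcn were Serpinf1 (0.64), the actin-severing gene Gsn (0.64), Clec3b (0.64) and Lum (0.62). Serpinf1 was one of the markers that defined the class. Those most like Bgn there were Igfbp7 (0.55), the protease inhibitor gene Cst3 (0.50), the calcification inhibitor gene Mgp (0.50) and C1qtnf5 (0.40). In the sham-labelled library, Fbln1 (0.36), Smoc2 (0.32) and Lum (0.29) were most like Dcn, Col14a1 (0.27) was most like Ogn, and Col3a1 (0.33), Fbln2 (0.31), Inhba (0.30) and Cd9 (0.29) were most like Vcan. Bgn labelled sham correlated with depth at 0.44, and the genes most like it were led by the ribosomal protein gene Rpl3 (0.40).

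**Figure D4:**
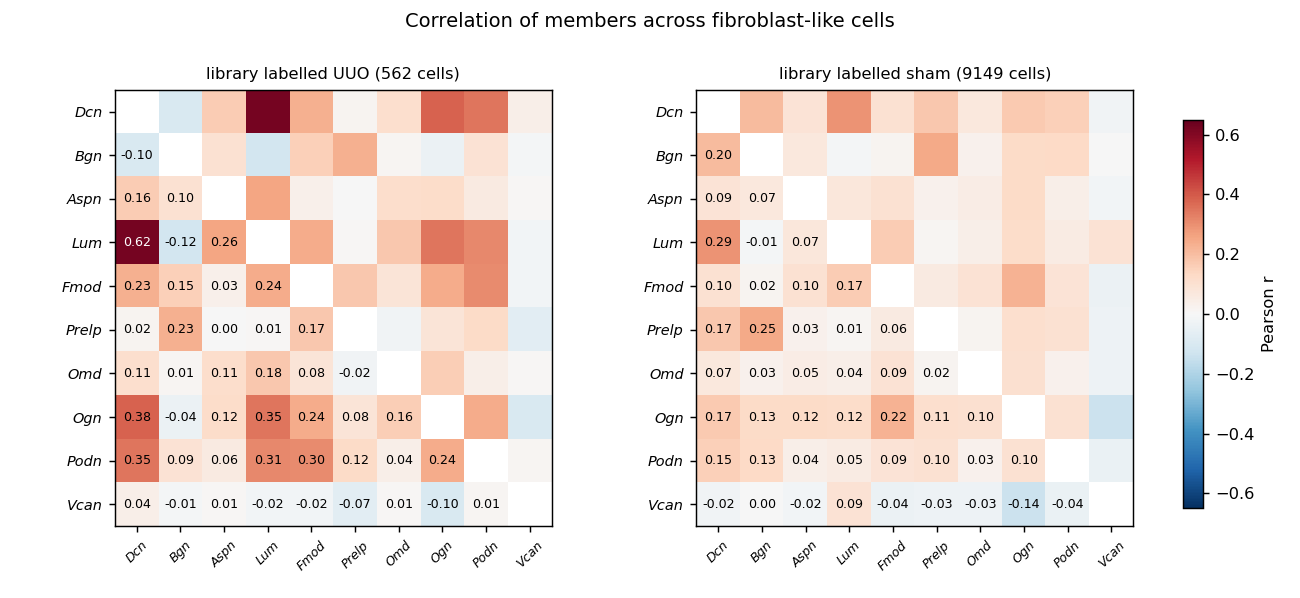
Pearson r of log2(1 + counts per 10000) between members across fibroblast-like cells, the UUO-labelled library left and the sham-labelled library right, with values below the diagonal. Dcn and Lum share the highest r in both panels, 0.62 and 0.29.

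Genes that build, cleave or bind these proteoglycans were taken from fixed lists in the same fibroblast-like cells. Of 16 tested enzymes of the linkage region and of chondroitin and dermatan chains (22 listed), 0 passed 2-fold in either direction, and the median log2 ratio was -0.10. B3galt6, a linkage enzyme, was at 19.0 CPM labelled UUO and 15.3 CPM labelled sham, and the chain polymerase Chsy1 at 13.1 and 26.2 CPM. The 4 tested keratan sulfate enzymes (7 listed) also lay within 2-fold after the added 5 CPM, from Chst2 at 18.5 CPM labelled UUO and 9.19 CPM labelled sham to Chst1 at 18.5 and 26.8 CPM. Of all genes tested, 12.2% passed 2-fold upward and 4.91% downward, and with so few enzymes nothing is read from their counts.

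Proteases went both ways, with 3 of 9 tested (12 listed) higher and 2 lower, beside the same 12.2% and 4.91% of all genes. Adamts5, which cleaves versican and aggrecan, was at 423 CPM in the UUO-labelled library and 57.5 CPM in the sham-labelled library, a ratio of 7.35, and Adamts1, with a like role, at 404 and 167 CPM. Adamts9, named after its value was seen, was the third, at 22.7 and 8.20 CPM, and passed the filter through the UUO-labelled library alone. Bmp1, which removes the propeptides of biglycan and procollagen, was at 72.0 CPM labelled UUO and 206 CPM labelled sham, and the stromelysin Mmp3 at 152 and 353 CPM. Of 10 collagen genes 1 was higher, near the share of all genes, and 2 were lower, with a median log2 ratio of -0.73. Col14a1, whose product binds decorin, was at 437 CPM labelled UUO and 111 CPM labelled sham. Col12a1 was at 73.6 and 593 CPM, and Col5a2 at 74.4 and 355 CPM. Of 6 tested versican partners (8 listed), Fbln1 was higher, at 1147 CPM labelled UUO and 269 CPM labelled sham, and Tnc (55.1 and 267 CPM) and Fbn1 (121 and 279 CPM) were lower; 1 of 6 higher is near the share of all genes.

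Of 9 further leucine-rich proteoglycan genes, 2 reached 10 CPM in either library, and the count of calls among so few is not read. Epyc, epiphycan, known from cartilage, was at 55.6 CPM labelled UUO and 6.28 CPM labelled sham and passed the filter through the UUO-labelled library alone, and Ecm2, which precedes Aspn on chromosome 13, at 107 and 25.4 CPM. Kera, which follows Lum on chromosome 10, had 0 counts labelled UUO and 1 labelled sham. Among the relatives of versican and their link proteins 1 of 7 was tested, Hapln3, at 10.2 CPM labelled UUO and 1.91 CPM labelled sham, which also passed through the UUO-labelled library alone, while Acan and Ncan had 0 counts in both.

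Both libraries held cells with Xist transcripts and cells with Y-linked transcripts, 248 and 284 retained cells labelled UUO and 5807 and 1776 labelled sham with one and not the other. The 8 members past 2-fold stayed past it within each kind of cell. The log2 ratio of Lum was 3.60 in cells with Xist UMIs and 2.78 in cells with Y-linked UMIs, and that of Fmod 3.43 and 2.29.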

How the data were processed

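Both libraries came as matrices of cells by gene entries. The values are expected counts of UMIs, as the authors deposited them, with no normalization. Per the submitters' processing notes, the tools were alevin and Salmon 0.13.1 and the build mm10. Whole numbers (within 1e-06) made up 91.2% of nonzero values in the UUO-labelled library and 92.3% in the other; the rest are UMIs that alevin divided among genes. The sources used here do not give how barcodes were selected.

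Cells with at least 500 UMIs, 300 genes and at most 20% mitochondrial UMIs were kept. Each of 9 classes had 8 markers (erythroid 7 matched). A cell joined the class with the most detected markers, if at least 3 and at least 2 more than any other class. Cells short of this margin stayed unassigned, which also set aside some doublets with markers of more than 1 class. Cells short of the margin only between fibroblast and pericyte markers were called mixed. No doublet caller was run, and assigned cells could still hold markers of other classes. Fibroblast markers averaged 3.23 of 8 in loop or distal tubule-like and 2.96 in macrophage-like cells labelled sham. They averaged 2.18 in endothelial-like and 1.41 in proximal tubule-like cells labelled UUO. Class totals were rounded to whole counts and scaled to CPM. Ratios carry exact conditional binomial intervals, levels Poisson intervals and shares Clopper-Pearson intervals. Absence was set at 3 counts. A ratio was called at 2-fold after adding 5 CPM, for genes that reached 10 CPM in one library or both. Genes were named by a fixed rule: all members, the 2 highest and 2 lowest log2 ratios of each related list (the text gives some of them), and the 4 genes most correlated with each member at 50 CPM or more. Adamts9, Kera, Acan and Ncan fall outside this rule and were named after their values were seen. The members, lists and subset markers were chosen with earlier results of these data known. The ratio and interval calculations were tested on simulated data. Python 3.11.15, numpy 2.4.6, scipy 1.17.1, pandas 2.3.3 and matplotlib 3.10.9 were used.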

Additional observations from a re-analysis of the deposited data

How the results depend on the processing

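The log2 ratio of every member kept its sign in all 17 settings, 2 of which (the filters on genes) cannot change a ratio. The others changed the marker threshold, the margin between classes, the cells included, their weight, depth and sex-linked transcripts, the added CPM, the scaling and the filter on cells. Dcn, Aspn, Lum, Fmod, Omd, Ogn, Podn and Vcan stayed past 2-fold wherever they were tested, Prelp in 0 settings, and Bgn passed 2-fold lower with all retained cells alone, at -1.005, which made 2 members lower. With 20 CPM added, which shrinks low genes, the log2 ratios of Fmod and Omd were 2.02 and 1.28. Members higher numbered 6 with genes at 50 CPM or more, where Omd was not tested, and 7 otherwise. Over all genes, 512 were higher and 216 lower with 20 CPM added, and 445 were higher and 245 lower with genes at 50 CPM or more (3439 tested), against 1172 and 473 as reported. The median of genes with at least 50 CPM in both libraries was -0.15, and scaling by it gave log2 ratios of 0.47 for Prelp and -0.75 for Bgn. Including every cell with at least 3 fibroblast markers whatever else it held, an alternative chosen after seeing the data, gave 764 cells labelled UUO and 10097 labelled sham and the same 7 and 1 members called. Members highest in fibroblast-like cells numbered 9 to 10 labelled UUO and 8 to 10 labelled sham. No paired analysis was possible because each group had 1 library. Counts below about 20 per class, as for Aspn in pericyte-like cells, leave wide intervals, and variation between animals cannot be seen.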
